A study of Mus musculus with 12 samples.

Results

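The genes described here are 10 genes of iron handling in mouse liver: the hepcidin genes Hamp and Hamp2, the BMP ligand gene Bmp6, the BMP target gene Id1, the transferrin receptor genes Tfr2 and Tfrc, the transferrin gene Trf, the ferritin genes Fth1 and Ftl1, and the iron exporter gene Slc40a1. They were chosen by symbol, after the Ensembl identifiers of the count table had been matched to symbols, and make up 10 of its 51912 identifiers. Liver RNA of 12 mice was measured by 3' mRNA sequencing with Lexogen's QuantSeq kit, in which a read comes from the 3' end of a polyadenylated transcript. The 4 groups of 3 livers were Mlkl-/- mice on a high-fat diet (HFD), wild-type mice on HFD, Mlkl-/- mice on normal chow (ND) and wild-type mice on ND. HFD held 36% fat and drew 59% of its energy from lipid. The mice were 8 to 9 weeks old when the diets began, and the diets lasted 25 weeks by the sample labels but 16 weeks or more by the series text. Per that text the animals were fed at collection and were selected on mean organ weights, so they are not a random draw from their cages. MLKL is the pseudokinase that opens the plasma membrane in necroptosis, and the series asks what it does in mice made obese by diet.

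Hepcidin is a peptide hormone of hepatocytes that binds ferroportin, the exporter encoded by Slc40a1, and brings about its degradation, so that less iron leaves macrophages, enterocytes and hepatocytes. Its transcription follows body iron and inflammation: BMP6 and BMP2 from liver endothelial cells act on hepatocyte receptors and SMAD proteins, which also drive Id1, and interleukin 6 acts through STAT3. The transferrin receptor of Tfrc, the ferritins and ferroportin are set in large part after transcription, by iron regulatory proteins. These proteins bind a short hairpin called the iron-responsive element in the mRNAs of those genes.

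Hamp (ENSMUSG00000050440, chr7:30942368-30944032, minus strand, mm10) and Hamp2 (ENSMUSG00000056978, chr7:30922372-30924681, minus strand) lie beside each other. Hamp encodes the active hormone in mice, and Hamp2 is its paralogue. Their promoters are shown because the hepcidin pair moved together in these livers. The stretches run from 150 bases to 1 base before the start site, in RefSeq's GRCm38.p6, and cover chr7:30944030-30944179 for Hamp and chr7:30924182-30924331 for Hamp2, both on the minus strand. The Hamp2 stretch lies inside the gene span given above, because the RefSeq start site used is downstream of that span's 5′ end. Capitals mark the places of GGCGCC, which in human HAMP is the core of a BMP-responsive element, and of TTCNNNGAA, the form of a STAT site.
Hamp: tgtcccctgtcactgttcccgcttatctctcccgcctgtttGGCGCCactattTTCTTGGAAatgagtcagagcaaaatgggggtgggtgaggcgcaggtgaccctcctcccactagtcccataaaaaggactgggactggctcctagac
Hamp2: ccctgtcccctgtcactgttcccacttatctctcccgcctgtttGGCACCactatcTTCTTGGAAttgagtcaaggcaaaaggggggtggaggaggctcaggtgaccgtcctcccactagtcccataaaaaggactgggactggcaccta
Over the whole windows of 250 bases before to 50 after the start site, 276 of 297 aligned bases (92.9%) were the same in the pair. Hamp has GGCGCC at 109 to 104 bases before the start site. Hamp2 has G4A at the aligned place, counted from 1 at the motif's 5′ end in Hamp, and thus no GGCGCC. Both have TTCTTGGAA, at 97 to 89 bases before the start site in Hamp and 94 to 86 in Hamp2. Both motifs read the same on either strand and do not overlap in these windows. Of 32851 RefSeq promoters of that length, 11.9% hold GGCGCC, 8.3% hold TTCNNNGAA and 0.65% hold both. A promoter entry was found for 7 of the 10 genes, in 11 windows, and of the other windows 1 window of Tfrc held GGCGCC. A match describes letters in a window and not a bound site.

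The iron-responsive elements of 4 of the other genes are shown because ferritin, ferroportin and Tfrc mRNAs are regulated through them. Transcript counts do not measure how much protein is made from an mRNA, whereas a change in the stability of Tfrc mRNA can alter its counts. Each was found in GENCODE M21 transcripts as a C, 5 bases, CAGTG, then A, C or T, and 5 bases that pair with the earlier 5. Pairs of G with T were allowed, and capitals mark the bulged C and the loop. The elements lie in the 5′ untranslated regions of Fth1 (chr19:9982732-9982761, plus strand), Ftl1 (chr7:45459778-45459807, minus strand) and Slc40a1 (chr1:45925464-45925493, minus strand), and in the 3′ untranslated region of Tfrc at 4 places, of which the element at chr16:32631219-32631248 (plus strand) is given.
Fth1: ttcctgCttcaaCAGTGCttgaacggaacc
Ftl1: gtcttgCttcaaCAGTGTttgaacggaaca
Slc40a1: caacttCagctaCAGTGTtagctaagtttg
Tfrc: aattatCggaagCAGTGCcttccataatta
The form was found in 222 of 21901 protein-coding genes (1.01%), counted anywhere in a transcript, coding sequence included. The elements above were kept only within an untranslated region and a single exon, so that share has a wider criterion.

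Library totals ran from 19435391 to 32120426 counts, and levels are given as CPM, counts scaled to a common library size with TMM factors. Mlkl had 9 to 34 counts in Mlkl-/- HFD livers against 88 to 252 in wild-type HFD livers, and 15 to 20 counts in Mlkl-/- ND livers against 72 to 92 in wild-type ND livers, without overlap on either diet. The position of the deletion is not stated, and 3' reads outside it would not check the genotype. Summed CPM of 8 hepatocyte markers such as Alb and Ttr was 82300 to 110000 in Mlkl-/- HFD, 59300 to 85000 in wild-type HFD, 81500 to 116000 in Mlkl-/- ND and 107000 to 113000 in wild-type ND livers, so the livers carry abundant hepatocyte transcripts. At 8 loci, mostly small RNA genes, a summed raw CPM over 1000 set apart all 3 Mlkl-/- HFD livers, replicates 2 and 3 of wild-type HFD and replicate 1 of Mlkl-/- ND (3484 to 9239) from the other 6 (378 to 656). The titles also carry a code whose meaning is not stated, 25 or 29 in HFD livers and 23 or 27 in ND livers, so that no HFD and ND liver share a code. As a choice of this work, 25 and 23 were joined as the lower level and 29 and 27 as the higher. The lower level holds Mlkl-/- HFD replicates 1 and 2, wild-type HFD replicate 1, Mlkl-/- ND replicate 1 and wild-type ND replicates 1 and 2. Replicates are animals numbered separately in the labels. Genes are called where edgeR's quasi-likelihood test gives an adjusted p under 0.05 (Benjamini-Hochberg over 18098 genes tested, all 10 among them), and SE is that of the fitted log2 fold change.

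Both hepcidin genes were highest in wild-type ND livers and lower in the other 3 groups, and their diet differences ran in opposite directions in the genotypes. Hamp had 373, 436 and 300.4 CPM in Mlkl-/- HFD livers, a mean of 370 ± 68.0 (SD, n = 3). In wild-type HFD livers it had 307, 142 and 178 CPM (209 ± 86.8). In Mlkl-/- ND livers it had 86.9, 273 and 293 CPM (218 ± 114). In wild-type ND livers it had 755, 672 and 594 CPM (674 ± 80.3). The lowest wild-type ND liver was thus above all other 9 livers, and Mlkl-/- ND replicate 1 was the lowest of the 12. Behind these values stand 1769 to 18145 Hamp counts in a library, so counting error is small beside the spread between animals.

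In Mlkl-/- livers the HFD over ND difference of Hamp was 0.76 ± 0.41 on the log2 scale (edgeR adjusted p = 0.440), with every HFD liver above every ND liver. In wild-type livers Hamp fell by 1.69 ± 0.41 with HFD (adjusted p = 0.0471), and no HFD liver reached an ND liver. The Mlkl-/- over wild-type difference was 0.83 ± 0.41 on HFD (adjusted p = 0.351), where wild-type HFD replicate 1 lay above Mlkl-/- HFD replicate 3, and -1.63 ± 0.41 on ND (adjusted p = 0.540), without overlap. The diet difference in Mlkl-/- minus that in wild-type livers was 2.45 ± 0.58 for Hamp (edgeR adjusted p = 0.338). DESeq2 called this difference (2.45, adjusted p = 0.00439) and the genotype difference on ND (-1.63, adjusted p = 0.00205). Hamp is made by hepatocytes, whose summed markers were lower in wild-type HFD than in wild-type ND livers, at 59300 to 85000 against 107000 to 113000 CPM, with 2 of 8 called lower (Serpina1a and Fgb, where 4.23% of all genes were called), and their part in the fall of Hamp was not tested. In bulk liver, fewer cells of a type and less RNA per cell cannot be told apart.

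Hamp2 was likewise highest in wild-type ND livers. It had 35.0, 35.6 and 21.8 CPM in Mlkl-/- HFD livers, 28.3, 16.3 and 13.6 CPM in wild-type HFD livers, 6.48, 17.5 and 18.7 CPM in Mlkl-/- ND livers and 76.6, 55.6 and 44.7 CPM in wild-type ND livers. As with Hamp, all 3 wild-type ND livers were above the other 9, and Mlkl-/- ND replicate 1 was the lowest. The HFD over ND difference was 1.11 ± 0.41 in Mlkl-/- (edgeR adjusted p = 0.271) and -1.60 ± 0.41 in wild-type livers (adjusted p = 0.0540), without overlap in either genotype. On ND the Mlkl-/- over wild-type difference was -2.05 ± 0.41 (adjusted p = 0.375), and the difference of the diet effects was 2.71 ± 0.58 (edgeR adjusted p = 0.338, DESeq2 adjusted p = 0.000555). Hamp2 stood at 6.38% to 11.5% of the Hamp count in a library. Reads shared between the near-identical pair cannot be assigned from these counts, and the sum of both gave the same call as Hamp, a log2 fold change of -1.68 with HFD in wild-type livers (adjusted p = 0.0466). The lincRNA gene Gm44662, which overlaps both on the opposite strand, had 73 to 238 counts in a library, and the sources used here do not give the strand setting of the counting.

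**Figure D1:**
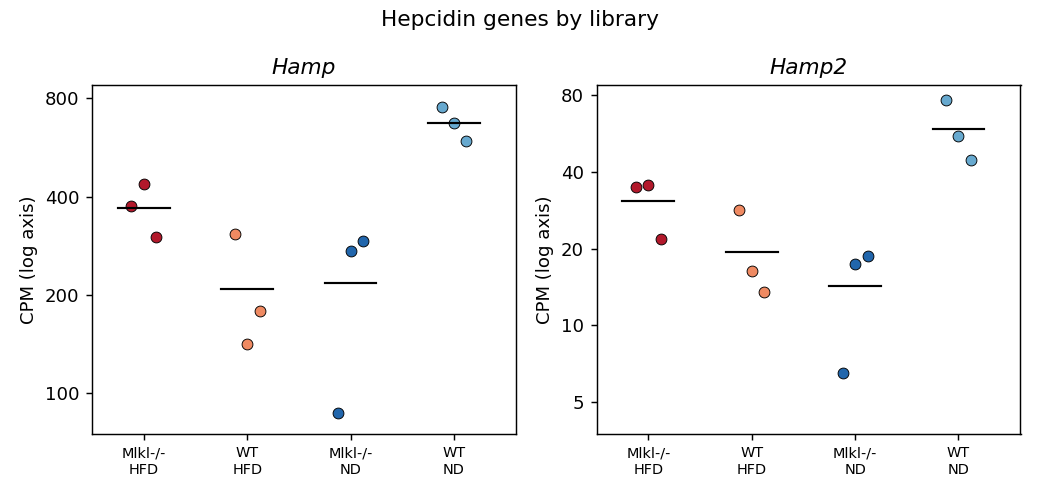
Hamp and Hamp2 in CPM (log axis) in each of the 12 livers, with Mlkl-/- HFD, wild-type (WT) HFD, Mlkl-/- ND and WT ND livers side by side; points are livers and bars are group means. The 3 WT ND livers lie at 594 to 755 CPM for Hamp, above all others, and Mlkl-/- ND replicate 1 lies lowest at 86.9 CPM.

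The 2 patterns counted here are those seen in Hamp and Hamp2, so their shares over all genes are descriptions and not tests. The shares were not compared with those of randomly ordered livers. Wild-type ND livers lay above all other 9 livers for 95 of 18098 genes (0.525%), among them Hamp and Hamp2 but none of the other 8 iron genes. HFD and ND livers failed to overlap in both genotypes, with opposite directions, for 128 genes (0.707%), again with Hamp and Hamp2 alone of the 10. By the edgeR test 1 of the 10 genes, Hamp, was called for diet in wild-type livers, where 4.23% of all genes were called. None of the 10 was called for diet in Mlkl-/- livers (0.359% of all genes called), for genotype on HFD (0.0276%) or on ND (0.00553%), for the difference of the diet effects (0% called), for diet averaged over genotypes (7.19%) or for genotype averaged over diets (0.0166%). At an unadjusted p under 0.05 there were 1 of the 10 for diet in Mlkl-/-, 3 for diet in wild-type, 2 for genotype on HFD, 3 for genotype on ND, 3 for the difference of the diet effects, 2 for averaged diet and 3 for averaged genotype. The same counts over all 18098 genes were 2459, 3702, 2806, 997, 1889, 3990 and 1927. DESeq2 called 2 of the 10, Hamp and Hamp2, for diet in wild-type livers, for genotype on ND and for the difference of the diet effects. It called 1 (Fth1) for averaged diet and 0 in the other 3 comparisons. Of all 18098 genes DESeq2 called 1465 for diet in wild-type livers, 46 for genotype on ND and 50 for the difference. For averaged diet it called 1947, for diet in Mlkl-/- livers 514, for genotype on HFD 395 and for averaged genotype 209. A p that misses the threshold does not show that values did not differ.

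The Hamp differences that involve Mlkl-/- ND livers were smaller without Mlkl-/- ND replicate 1, and they differed between the title code levels. Without that liver the HFD over ND difference in Mlkl-/- livers was 0.41 for Hamp and 0.79 for Hamp2, and the genotype difference on ND was -1.27 and -1.72. The difference of the diet effects for Hamp was then 2.08 (edgeR adjusted p = 0.0933), and its fall with HFD in wild-type livers was called at adjusted p = 0.00392. Calls rose over all genes in that fit, to 1233 of 18590 for diet in wild-type livers, against 766 of 18098 with all 12 libraries. For diet in Mlkl-/- livers they rose to 729, against 65, so the lower p is not particular to Hamp. In log2 CPM (prior count 2), the Hamp difference between HFD and ND Mlkl-/- livers was 2.21 among libraries at the lower code level and 0.09 among those at the higher, against 0.94 over all. In wild-type livers the same difference was -1.22 at the lower level and -1.90 at the higher, against -1.76 over all. Each of these within-level values rests on 3 libraries and on that joining of the codes, and has no test. At the lower level the only Mlkl-/- ND liver is replicate 1. The 2.21 there and the change on leaving that liver out are thus not separate observations.

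The level of the 8 loci moved with some of these results. With it as a term, the fitted Hamp difference between HFD and ND was 1.82 in Mlkl-/- (edgeR adjusted p = 0.00767) and -0.87 in wild-type livers (adjusted p = 0.0807). In that fit the genotype difference was 1.33 on HFD (adjusted p = 0.0210) and -1.37 on ND (adjusted p = 0.0356), and the difference of the diet effects was 2.69 (adjusted p = 0.000925). All 3 Mlkl-/- HFD livers are at the higher level and all 3 wild-type ND livers at the lower, so this fit leans on the other 2 groups. In those, Hamp was lower at the higher level: 86.9 against 273 and 293 CPM in Mlkl-/- ND livers. In wild-type HFD livers it was 142 and 178 against 307 CPM. Over all 18098 genes this fit called 27 for diet in Mlkl-/- and 158 in wild-type livers. It called 8 for genotype on HFD, 3 on ND and 2 for the difference.

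The call for Hamp in wild-type livers was close to its threshold. It was lost in 10 of the 12 fits that left out 1 library, at adjusted p 0.0517 to 0.186, and held only without Mlkl-/- ND replicate 1 or without wild-type HFD replicate 1. Over all genes these 12 fits called 63 to 1233 for diet in wild-type livers, against 766 with all 12 libraries. The fold change stayed between -2.08 and -1.47 in these 12 fits. It was -1.50 with library size only (adjusted p = 0.0576).

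Bmp6 (ENSMUSG00000039004, chr13:38345107-38500302), whose product induces hepcidin, was scarce, with 27 to 142 counts in a library. It had 2.29, 1.30 and 2.47 CPM in Mlkl-/- HFD livers, 3.68, 2.64 and 6.22 CPM in wild-type HFD livers, 1.82, 2.35 and 5.29 CPM in Mlkl-/- ND livers and 6.07, 4.22 and 3.73 CPM in wild-type ND livers. All 3 Mlkl-/- HFD livers lay below the wild-type HFD livers, while the groups overlapped between genotypes on ND and between diets in either genotype. The Mlkl-/- over wild-type difference was -1.03 ± 0.42 on HFD (edgeR adjusted p = 0.264) and -0.56 ± 0.41 on ND (adjusted p = 0.967), and its average over both diets was -0.79 ± 0.29 (adjusted p = 0.358). Txndc5, a gene that overlaps Bmp6 on the opposite strand, had 2797 to 4617 counts in a library. The strand setting of the counting is not given, so any Txndc5 reads in the Bmp6 count cannot be told apart. Bmp6 is made mainly by sinusoidal endothelial cells. Summed CPM of 8 markers of these cells, such as Stab2 and Lyve1, was 111 to 135 in Mlkl-/- HFD, 209 to 320 in wild-type HFD, 138 to 214 in Mlkl-/- ND and 163 to 228 in wild-type ND livers. Of the 8, 2 (Dnase1l3 and Fcgr2b) were called lower in Mlkl-/- than in wild-type livers on HFD, where 0.0276% of all genes were called. No marker was at 0 in all libraries, and the part of these cells in the Bmp6 values was not tested.

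Bmp2, the other endothelial ligand of the hepcidin pathway, had 8.43 ± 1.24 CPM in Mlkl-/- HFD, 13.6 ± 2.73 in wild-type HFD, 9.80 ± 1.44 in Mlkl-/- ND and 12.3 ± 2.15 in wild-type ND livers (SD, n = 3 each). Its Mlkl-/- over wild-type difference was -0.69 ± 0.19 on HFD (edgeR adjusted p = 0.156) and -0.32 ± 0.19 on ND (adjusted p = 0.941).

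Id1 (ENSMUSG00000042745, chr2:152736251-152737410), a transcriptional inhibitor switched on by BMP signals, shared the low ND values of Mlkl-/- livers. It had 15.2, 12.6 and 3.91 CPM in Mlkl-/- HFD livers, 12.7, 11.2 and 7.23 CPM in wild-type HFD livers, 1.52, 8.68 and 2.57 CPM in Mlkl-/- ND livers and 16.3, 14.4 and 14.7 CPM in wild-type ND livers. Mlkl-/- ND livers lay below wild-type ND livers without overlap, and so did wild-type HFD livers, whereas the 2 HFD groups overlapped. The Mlkl-/- over wild-type difference on ND was -1.83 ± 0.63 (edgeR adjusted p = 0.765), and the HFD over ND difference was 1.30 ± 0.62 in Mlkl-/- (adjusted p = 0.401) and -0.54 ± 0.59 in wild-type livers (adjusted p = 0.675). The difference of the diet effects was 1.84 ± 0.86 (adjusted p = 0.497).

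Counted by groups that do not overlap, the 10 genes gave 3 for diet in Mlkl-/- livers (Hamp and Hamp2 higher on HFD, Tfr2 lower), where 15.5% of all genes did not overlap. There were 5 for diet in wild-type livers (Hamp, Hamp2, Id1 and Tfr2 lower on HFD, Fth1 higher), against 29.1% of all genes. On HFD there were 2 between genotypes (Bmp6 lower in Mlkl-/-, Tfr2 higher), against 21.4%, and on ND 4 (Hamp, Hamp2 and Id1 lower in Mlkl-/-, Trf higher), against 10.5%. Tfrc, Ftl1 and Slc40a1 overlapped in all 4 comparisons.

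Across the 12 livers, log2 CPM of Hamp followed that of Id1, at Pearson r = 0.68 and Spearman rho = 0.81 (permutation p = 0.0164 and 0.00206, or 0.0327 and 0.00412 after adjustment over the 4 relations computed, two-sided). Without the 2 libraries farthest from the Id1 median, Mlkl-/- ND replicates 1 and 3, r was 0.53. Without Mlkl-/- ND replicate 1 alone r was 0.44 (permutation adjusted p = 0.228). The deviations from the group means correlated at r = 0.61, a value with no test. All permutation p in this paragraph come from shuffling livers freely across the 4 groups, so they also reflect differences between group means. Hamp and Hamp2 stood at r = 0.96 and rho = 0.99, with the smallest p that 100000 resamples can give (1e-05, adjusted 4e-05), and at r = 0.93 without 2 libraries. Hamp against Bmp6 gave r = 0.30 and rho = 0.22 (permutation adjusted p = 0.345 and 0.484), with r = 0.71 without Mlkl-/- HFD replicate 2 and wild-type HFD replicate 3. Hamp against Tfrc gave r = -0.34 and rho = -0.43 (permutation adjusted p = 0.345 and 0.227), with r = -0.43 without 2 libraries.

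**Figure D2:**
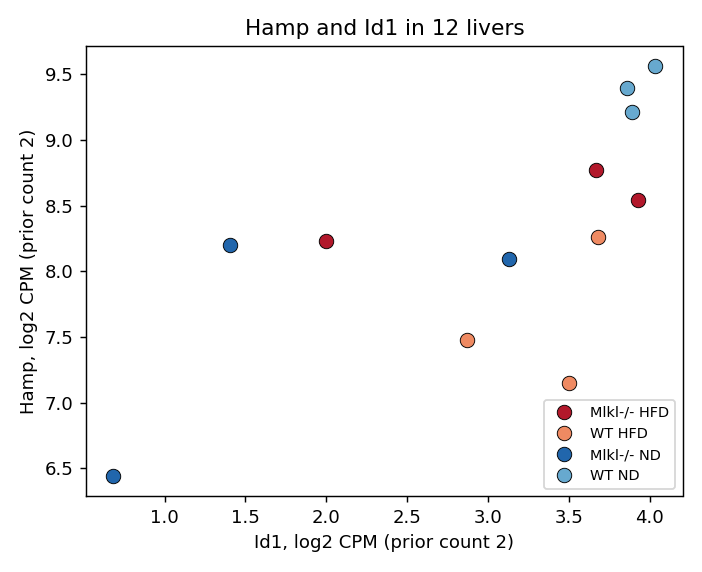
Hamp against Id1 in log2 CPM (prior count 2) in 12 livers, coloured by group. The 3 WT ND livers lie at the top right, Mlkl-/- ND replicate 1 lies alone at the lower left, and r is 0.68 over all 12 and 0.44 without that liver.

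Other BMP target genes were described as a list of 8, namely Smad6, Smad7, Atoh8, Id2, Id3, Id4, Smad9 and Bambi. By edgeR none of the 8 was called in any of the 7 comparisons, with 1 to 4 at an unadjusted p under 0.05 in each. DESeq2 called 1, Smad9, for diet in wild-type livers, where it called 1465 of 18098 genes. On ND, 7 of the 8 had a log2 difference below 0 in Mlkl-/- against wild-type livers, with a median of -0.55 where the median of all genes was 0.00. The HFD over ND median was 0.32 in Mlkl-/- (6 of 8 above 0) and -0.26 in wild-type livers (2 of 8 above 0), and the median difference of the diet effects was 0.58 (7 of 8 above 0). On HFD the genotype median was -0.08. These comparisons share libraries, so their medians are not independent of each other.

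Among these targets, Id3 had 59.9, 28.2 and 28.7 CPM in Mlkl-/- HFD livers, 45.2, 41.0 and 31.8 CPM in wild-type HFD livers, 15.6, 27.2 and 24.4 CPM in Mlkl-/- ND livers and 49.8, 33.3 and 61.3 CPM in wild-type ND livers. Mlkl-/- ND livers lay below both the Mlkl-/- HFD and the wild-type ND livers, at a genotype difference on ND of -1.10 ± 0.33 (edgeR adjusted p = 0.624). Smad7, an inhibitory SMAD of the pathway, had 5.21, 8.15 and 5.81 CPM in Mlkl-/- ND livers against 11.3, 10.8 and 11.5 CPM in wild-type ND livers (-0.81 ± 0.24, adjusted p = 0.598). Atoh8, a transcription factor that acts on the hepcidin promoter, had 7.07, 13.5 and 14.2 CPM in Mlkl-/- ND livers against 20.6, 16.0 and 16.4 CPM in wild-type ND livers (-0.60 ± 0.30, adjusted p = 0.925). For 4 of the 8 targets (Smad7, Atoh8, Id3 and Smad9) the ND groups did not overlap, against 10.5% of all genes. Between genotypes on HFD every target overlapped, where 21.4% of all genes did not. For diet only Smad9 did not overlap in wild-type livers and only Id3 in Mlkl-/- livers, against 29.1% and 15.5% of all genes. Mlkl-/- ND replicate 1 was the lowest of 12 libraries for 6 of the 8, as it was for Hamp, Hamp2 and Id1. The share of all genes that were lowest in that library is not given here.

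**Figure D3:**
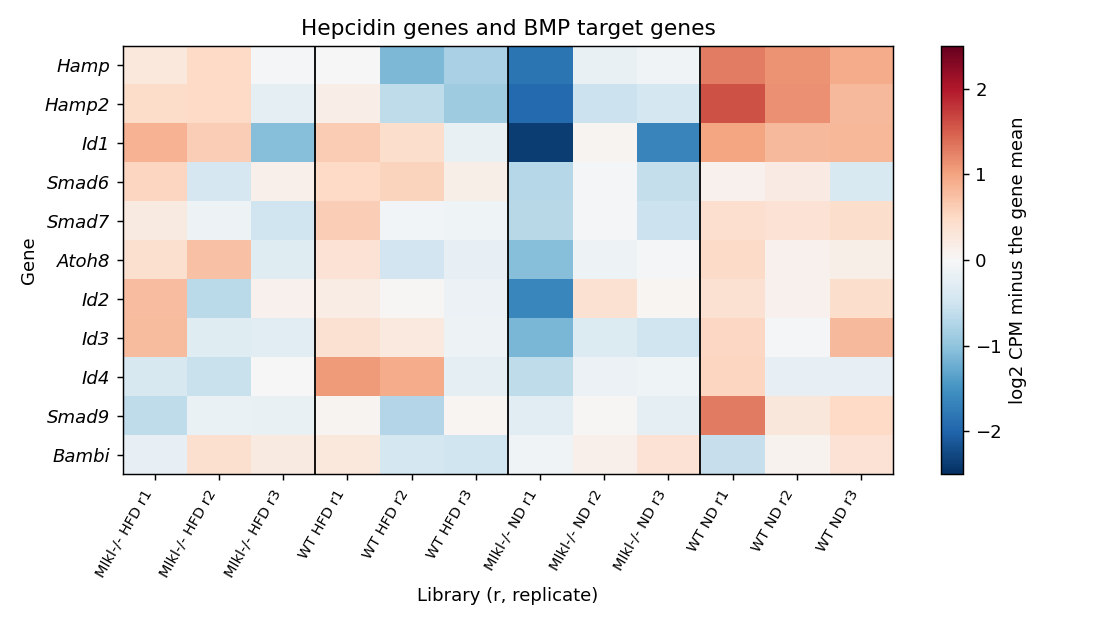
Hamp, Hamp2, Id1 and 8 other BMP target genes (down the page) in each liver (across), as log2 CPM minus the gene's mean over 12 livers; lines part the groups Mlkl-/- HFD, WT HFD, Mlkl-/- ND and WT ND. Hamp and Hamp2 are above their means in the 3 WT ND livers, and Mlkl-/- ND replicate 1 is the lowest library for 6 of the 8 other targets.

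Tfr2 (ENSMUSG00000029716, chr5:137569840-137587481) encodes the hepatocyte receptor that takes part in sensing transferrin-bound iron. It had 297, 320.0 and 308 CPM in Mlkl-/- HFD livers, 265, 240.4 and 295 CPM in wild-type HFD livers, 376, 324 and 324 CPM in Mlkl-/- ND livers and 334, 348 and 321 CPM in wild-type ND livers. HFD livers lay below ND livers in both genotypes without overlap, by small amounts. The HFD over ND difference was -0.15 ± 0.13 in Mlkl-/- (edgeR adjusted p = 0.655), -0.32 ± 0.13 in wild-type livers (adjusted p = 0.179) and -0.23 ± 0.09 averaged over genotypes (adjusted p = 0.147).

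Tfrc (ENSMUSG00000022797, chr16:32608920-32632794) encodes the receptor by which most cells take up transferrin-bound iron, and its mRNA is stabilised when cell iron is low. It had 10.4, 6.21 and 6.22 CPM in Mlkl-/- HFD livers, 9.81, 18.97 and 15.5 CPM in wild-type HFD livers, 9.28, 17.3 and 15.1 CPM in Mlkl-/- ND livers and 7.86, 6.38 and 18.7 CPM in wild-type ND livers. The values spread widely within groups, and the groups overlapped for either diet and either genotype. The difference of the diet effects was -1.29 ± 0.58 (edgeR adjusted p = 0.476), opposite in sign to that of Hamp. Kupffer cells express Tfrc too, and their markers such as Clec4f and Vsig4 summed to 83.7 to 183 CPM in Mlkl-/- HFD, 197 to 267 in wild-type HFD, 107 to 223 in Mlkl-/- ND and 132 to 168 in wild-type ND livers, and their part in the Tfrc values was not tested.

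Trf (ENSMUSG00000032554, chr9:103204001-103230444) encodes transferrin, the plasma iron carrier made by hepatocytes. It had 9188, 12566 and 12454 CPM in Mlkl-/- HFD livers, 10471, 10212 and 9408 CPM in wild-type HFD livers, 13250, 11049 and 12574 CPM in Mlkl-/- ND livers and 10326, 10050 and 10733 CPM in wild-type ND livers. Mlkl-/- ND livers lay above wild-type ND livers, at a log2 difference of 0.24 ± 0.17 (edgeR adjusted p = 0.958), while the HFD groups overlapped. The diet differences were -0.11 ± 0.17 in Mlkl-/- (adjusted p = 0.814) and -0.05 ± 0.17 in wild-type livers (adjusted p = 0.911). Gm20425, an annotated gene that overlaps Trf on the same strand, held 97.1% to 98.4% of the Trf count in every library, and reads of the pair cannot be told apart in these counts.

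Fth1 (ENSMUSG00000024661, chr19:9980598-9985098) and Ftl1 (ENSMUSG00000050708, chr7:45457944-45459884) encode the heavy and light chains of ferritin, the iron store of the cell. Fth1 had 1198, 842 and 925 CPM in Mlkl-/- HFD livers, 1044, 1276 and 953 CPM in wild-type HFD livers, 896, 771 and 669 CPM in Mlkl-/- ND livers and 867, 866 and 818 CPM in wild-type ND livers. HFD livers lay above ND livers without overlap in wild-type but not in Mlkl-/- mice. Its HFD over ND difference was 0.34 ± 0.17 in Mlkl-/- (edgeR adjusted p = 0.409), 0.36 ± 0.17 in wild-type livers (adjusted p = 0.264) and 0.35 ± 0.12 averaged over genotypes (adjusted p = 0.102). The averaged difference passed with DESeq2 (0.36, adjusted p = 0.0384) and with library size only (0.50, adjusted p = 0.0270), and the diet difference was nearly equal in both genotypes, with a difference of the diet effects of -0.02 ± 0.25.

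Ftl1 had 2421, 2637 and 2622 CPM in Mlkl-/- HFD livers, 2871, 3195 and 2409 CPM in wild-type HFD livers, 2953, 2384 and 2075 CPM in Mlkl-/- ND livers and 2536, 3145 and 2791 CPM in wild-type ND livers. All pairs of groups overlapped. The diet difference was 0.05 ± 0.17 in Mlkl-/- (2 SE to either side, -0.30 to 0.40) and 0.00 ± 0.17 in wild-type livers (-0.35 to 0.35). Ftl1 shares sequence with pseudogenes, and its value is uncertain to that extent: Ftl1-ps1 stood at 71.7% to 74.8% of the Ftl1 count, Ftl2-ps at 30.2% to 33.0% and Ftl1-ps2 at 3.32% to 4.23%. The sum of the copies was not called in any comparison either. Gm10252, which overlaps Ftl1 on the opposite strand, stood at 43.9% to 49.6% of the Ftl1 count.

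Slc40a1 (ENSMUSG00000025993, chr1:45908068-45926523), the gene of the exporter that hepcidin degrades, had 83.0, 90.6 and 146 CPM in Mlkl-/- HFD livers, 167, 106 and 143 CPM in wild-type HFD livers, 87.8, 152 and 118 CPM in Mlkl-/- ND livers and 153, 138 and 171 CPM in wild-type ND livers. Its means were lower in Mlkl-/- than in wild-type livers on both diets, with overlap. The genotype difference was -0.38 ± 0.24 on HFD (edgeR adjusted p = 0.455) and -0.37 ± 0.24 on ND (adjusted p = 0.954), and its average over both diets was -0.38 ± 0.17 (adjusted p = 0.456). The diet differences were -0.16 ± 0.24 in Mlkl-/- and -0.15 ± 0.24 in wild-type livers.

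**Figure D4:**
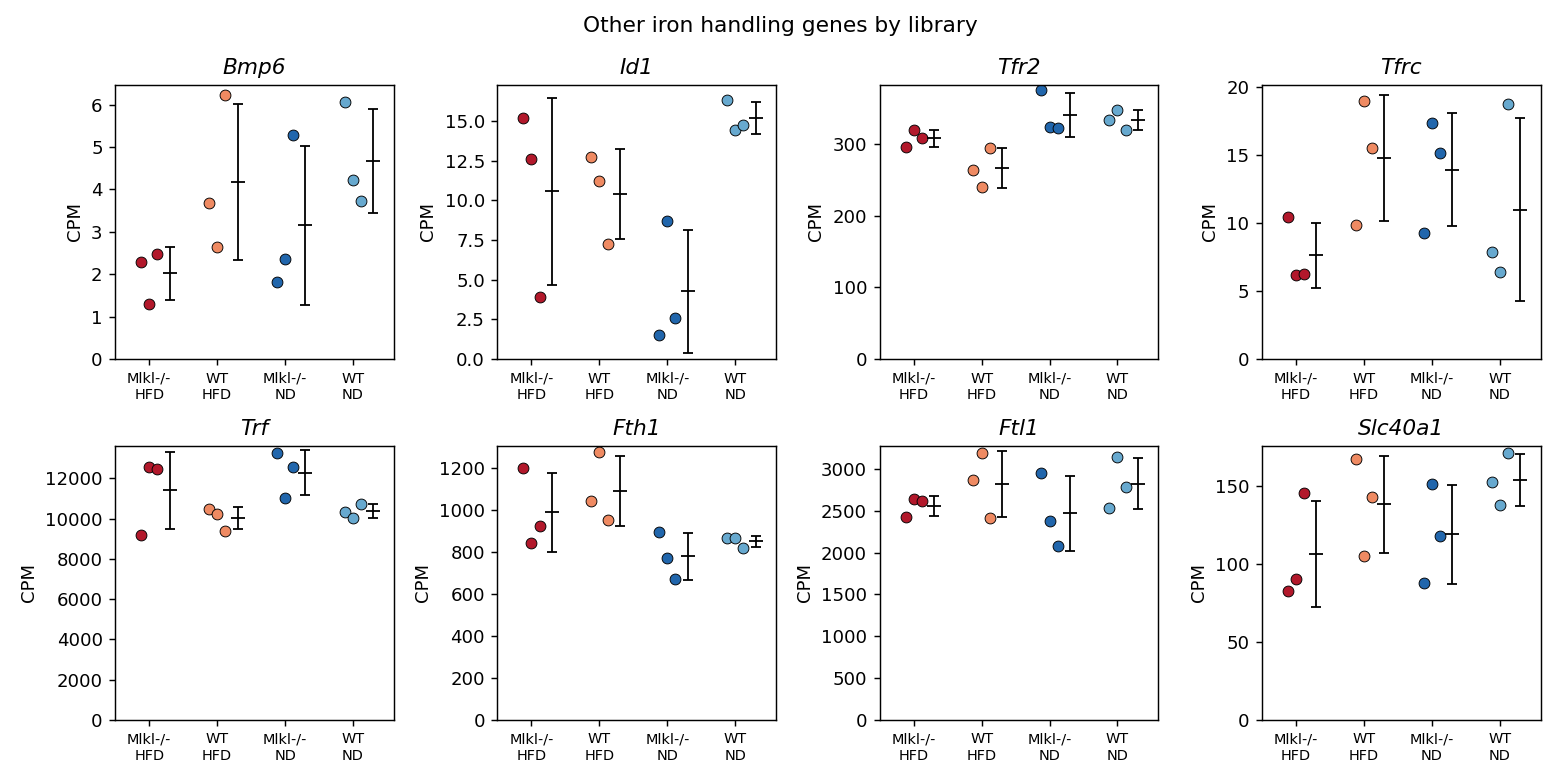
The other 8 genes in CPM (axes from 0) in each liver, with Mlkl-/- HFD, WT HFD, Mlkl-/- ND and WT ND livers side by side; points are livers, and dashes with bars are means ± SD (n = 3). Id1 has its lowest mean in Mlkl-/- ND livers, Bmp6 does not overlap between genotypes on HFD, and Ftl1, Tfrc and Slc40a1 overlap throughout.

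**Figure D5:**
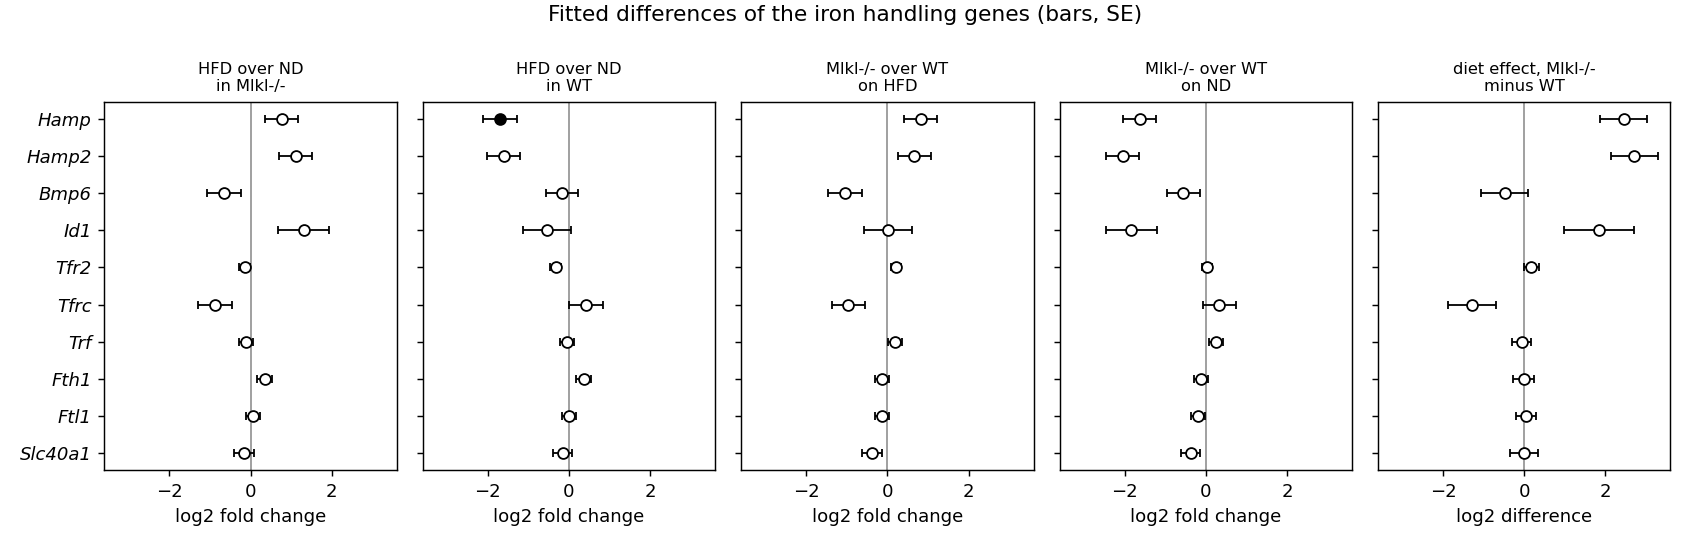
Fitted log2 differences of the 10 genes (down the page) with SE as bars, in the diet comparison in each genotype, the genotype comparison on each diet and the difference of the diet effects; filled points are called by edgeR at adjusted p under 0.05. Hamp in WT livers (-1.69) is the called point, and Hamp and Hamp2 stand at 2.45 and 2.71 in the last panel.

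The rest of the pathway was described by 6 lists that hold 73 genes beside the 10, of which 70 passed the filter and were tested. Smad9 is in 2 of the lists, those of BMP signal and of BMP targets, and is counted once here. By edgeR none was called for diet in Mlkl-/- livers (10 at an unadjusted p under 0.05), for diet in wild-type livers (8), for genotype on HFD (11), on ND (10) or on average (13), or for the difference of the diet effects (6). DESeq2 called 5 of them for diet in Mlkl-/- livers (Hjv, Cd163, Hpx, Cisd1 and Fgl1) and 2 in wild-type livers (Smad9 and Fgl1). It called 2 for genotype on HFD (Fgl1 and Socs3), 1 on ND (Fgl1), 3 on average (Fgl1, Hp and Socs3) and 0 for the difference. In the same order DESeq2 called 514, 1465, 395, 46, 209 and 50 of all 18098 genes. For diet averaged over genotypes 1 of the 70 was higher and 2 were lower, a share below the 7.19% of all genes called in that comparison. The BMP signal and hepcidin regulator list had 1 of 14 tested genes higher and 1 lower there (median -0.03, all genes -0.01). The iron uptake and plasma carrier list had 1 of 14 lower (median -0.17). The lists of BMP targets (8 tested), of interleukin 6 and STAT3 signal (7), of iron storage and sensing within cells (12) and of haem synthesis and breakdown (16) had no called gene, with medians of 0.11, -0.14, 0.03 and 0.05.

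Hjv, the gene of hemojuvelin, a BMP co-receptor needed for hepcidin expression, had 78.9, 84.2 and 74.7 CPM in Mlkl-/- HFD livers, 80.2, 94.6 and 68.0 CPM in wild-type HFD livers, 62.1, 51.4 and 52.8 CPM in Mlkl-/- ND livers and 59.99, 65.4 and 58.5 CPM in wild-type ND livers. It rose with HFD by 0.46 ± 0.10 averaged over genotypes (edgeR adjusted p = 0.0137), without overlap in either genotype, in the direction opposite to that of Hamp in wild-type livers.

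Fgl1, a hepatocyte protein that can hold back BMP signals to hepcidin, had 317, 223 and 566 CPM in Mlkl-/- HFD livers, 191, 138 and 151 CPM in wild-type HFD livers, 938, 618 and 1098 CPM in Mlkl-/- ND livers and 286, 276 and 397 CPM in wild-type ND livers. With HFD it fell by 1.13 ± 0.22 averaged over genotypes (edgeR adjusted p = 0.00981). Mlkl-/- livers were above wild-type livers on both diets without overlap, by 1.21 ± 0.31 on HFD (adjusted p = 0.145) and 1.47 ± 0.31 on ND (adjusted p = 0.298), or 1.34 ± 0.22 on average (adjusted p = 0.0598). Hpx, hemopexin, which carries free haem in plasma, fell by 0.67 ± 0.17 with HFD on average (adjusted p = 0.0306), at means of 3630 ± 1260 CPM in Mlkl-/- HFD, 2916 ± 733 in wild-type HFD, 6523 ± 864 in Mlkl-/- ND and 4121 ± 559 in wild-type ND livers. With the 8-locus level as a term none of these 3 calls held, and 122 of all 18098 genes were called for averaged diet, against 1302.

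Of the lists with no called gene, Id2 and Id3 were the most abundant BMP targets, Il6st and Stat3 led interleukin 6 signalling, Ncoa4 and Aco1 led storage and sensing, and Alas1 and Fech led haem synthesis. Stat3, the factor through which interleukin 6 acts on hepcidin, differed with HFD by -0.17 ± 0.24 in Mlkl-/- (edgeR adjusted p = 0.795) and -0.38 ± 0.24 in wild-type livers (adjusted p = 0.425). Aco1, whose product doubles as an iron regulatory protein, differed by 0.16 ± 0.13 in Mlkl-/- (adjusted p = 0.598) and 0.06 ± 0.13 in wild-type livers (adjusted p = 0.843). Erfe, Il6 and Cybrd1 had 40, 5 and 32 counts over all libraries and were not tested.

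Hepcidin responds to inflammation, so a list of 12 acute phase genes was set beside it. Their summed CPM was 9160 to 21100 in Mlkl-/- HFD, 6060 to 7590 in wild-type HFD, 17500 to 30700 in Mlkl-/- ND and 11500 to 14500 in wild-type ND livers. Mlkl-/- ND livers, which were low in Hamp, thus lay above both wild-type groups and overlapped the Mlkl-/- HFD livers. In wild-type livers 3 of the 12 fell with HFD (Fga, Fgg and Itih3) and none rose, where 4.23% of all genes were called, with a median of -0.42 (all genes -0.01). The genotype medians were 0.79 on HFD and 0.80 on ND, with no gene called by edgeR. At an unadjusted edgeR p under 0.05 were 6 and 8 of 12, against 2806 and 997 of 18098 genes. DESeq2 called 2 on HFD (Fga and Fgg, higher in Mlkl-/-) and 0 on ND, against 395 and 46 of all genes. Averaged over diets the genotype median was 0.86, and edgeR called no gene. For that average 11 of 12 had an unadjusted edgeR p under 0.05, against 1927 of 18098 genes. DESeq2 called 7 of the 12 there, against 209 of all genes. Recruited macrophage markers such as Ccr2 and Cx3cr1 summed to 38.6 to 53.6 CPM in Mlkl-/- HFD and 39.9 to 168 in wild-type HFD livers. On ND they summed to 55.6 to 127 CPM in Mlkl-/- and 42.9 to 49.4 in wild-type livers. Of these markers 3 of 8 rose with HFD in wild-type livers (Ccr2, Cx3cr1 and Gpnmb), where 4.23% of all genes were called. Stellate cell markers such as Lrat and Reln summed to 190 to 234 CPM in Mlkl-/- HFD, 230 to 454 in wild-type HFD, 217 to 280 in Mlkl-/- ND and 237 to 281 in wild-type ND livers. Red cell transcripts such as Hba-a1 and Hba-a2 summed to 635 to 1260 CPM in Mlkl-/- HFD, 561 to 1200 in wild-type HFD, 436 to 1180 in Mlkl-/- ND and 686 to 1220 in wild-type ND livers. The part of these cells and of the acute phase in the Hamp values was not tested.

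Ranked by Pearson r with Hamp over log2 CPM of the 12 livers, the nearest of 10889 genes with a mean of at least 5 CPM, the 10 left out, were Aspg (0.89), Sqor (0.88), Kiz (0.88), Gm13443 (0.86) and Gm11793 (0.86). They share libraries and scaling with Hamp, and the values carry no test. Aspg, an asparaginase, had 196 ± 30.8 CPM in Mlkl-/- HFD, 163 ± 5.36 in wild-type HFD, 146 ± 21.1 in Mlkl-/- ND and 236 ± 8.64 in wild-type ND livers, so it was also highest in wild-type ND livers. Of the 10 genes themselves, Hamp2 stood above every ranked gene and Id1 below 133 of them.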

How the data were processed

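Tools named in the submitters' processing notes are HISAT2, cutadapt 1.9, limma and featureCounts, and the build is mm10. The sources used here give no annotation, strand setting or handling of multi-mapping reads. Raw counts per Ensembl gene, without normalization, were deposited for 12 libraries. Symbols and positions came from GENCODE M21 and covered 51633 of 51912 identifiers. Genes were kept by filterByExpr (minimum 10 counts, 15 in total), scaled by TMM and fitted in edgeR 4.0.16 (R 4.3.3) with glmQLFit (robust) and 1 mean per group over all 12 libraries, leaving 8 residual degrees of freedom. glmQLFTest gave 7 comparisons, and p-values were adjusted over 18098 genes. Totals of 19435391 to 32120426 counts leave counting error largest for Bmp6 (27 to 142 counts) and Id1 (31 to 450). The script was tested on simulated data. Alternatives were RLE size factors, library size only, no filter beyond 1 count, 5 CPM in 3 libraries, DESeq2 1.42.0, the title code level or the 8-locus level as a term, the compared groups only and leaving out each library. Copies of Ftl1, and Hamp with Hamp2, were also summed, an alternative chosen after seeing the data. The text names all 10 genes, up to 4 called genes per pathway list and comparison or the 2 most abundant of a list with none, the first 2 of each marker list with called markers, Mlkl, and the 5 genes most like Hamp. Bmp2, the BMP targets beyond the 2 most abundant, the acute phase genes and genes called by DESeq2 alone were named after their values were seen. The members and lists were chosen with earlier results of these data known.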

Additional observations from a re-analysis of the deposited data

Results flagged for a closer look

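The hepcidin genes drew attention because their livers separated by diet in opposite directions: every Mlkl-/- HFD liver was above every Mlkl-/- ND liver, and every wild-type HFD liver was below every wild-type ND liver. For Hamp the diet effect in Mlkl-/- minus that in wild-type livers was 2.45 ± 0.58 on the log2 scale (edgeR adjusted p = 0.338). For Hamp2 it was 2.71 ± 0.58 (edgeR adjusted p = 0.338).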

How the results depend on the processing

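No paired analysis was possible because the labels number the animals without repeating numbers between groups. In edgeR or DESeq2 the Hamp and Hamp2 values kept their signs in the 4 simple comparisons and in the difference of the diet effects under all alternatives run. With 3 livers a group, scaling also limits small values: library size only put the median of all genes, near 0 with TMM, at 0.19 for diet in wild-type livers, 0.13 for averaged diet, -0.16 for genotype on HFD and -0.10 for averaged genotype and for the difference of the diet effects. Among the 10 genes, 2 were called for diet in Mlkl-/- livers with the 8-locus level (27 of all 18098 genes), against 0. Called for diet in wild-type livers were 0 with library size only, with no filter, with the title code and with the 8-locus level, 2 at 5 CPM, with DESeq2 and with the compared groups only, and 0 to 2 without 1 library, against 1. Over all genes library size only called 1102 here, no filter 922 of 30718, the title code 688 and the 8-locus level 158. The all-gene count was 793 of 11521 at 5 CPM, 1465 with DESeq2 and 1431 of 17426 with the compared groups only. Without 1 library it was 63 to 1233. For genotype on HFD 1 was called with the 8-locus level, for genotype on ND 2 with DESeq2 and 2 with the 8-locus level, and for the difference of the diet effects 2 with DESeq2 and 2 with the 8-locus level, against 0 each. The 8-locus level called 8, 3 and 2 of all 18098 genes in these comparisons, and DESeq2 46 and 50 in the last 2. For averaged diet 1 was called with library size only, 1 with DESeq2 and 0 to 2 without 1 library, the 2 (Hamp and Fth1) without Mlkl-/- ND replicate 1, against 0. All-gene calls there were 1980 with library size only, 1947 with DESeq2 and 2029 of 18590 without Mlkl-/- ND replicate 1. Among the other pathway genes, 1 was called for diet in Mlkl-/- livers with no filter (171 of 30718 genes) and 5 with DESeq2 (514). Without 1 library 0 to 2 were called (13 to 729 of all genes), against 0. Wild-type diet calls among pathway genes were 1 with library size only, 1 with no filter, 2 with DESeq2 and 1 with compared groups only. They were 0 to 1 without 1 library, against 0, with the all-gene counts given above. For genotype DESeq2 called 2 on HFD, 1 on ND and 3 on average, against 0 (395, 46 and 209 of all genes). Averaged genotype had 0 to 1 without 1 library, against 0 (1 to 33 of all genes). For averaged diet 3 pathway genes were called in the fit of all 12 libraries, against 1302 of all 18098 genes. Library size only called 5 (1980 of all genes), DESeq2 5 (1947) and the 8-locus level 0 (122). Without 1 library 2 to 6 were called (616 to 2029), the 6 without Mlkl-/- ND replicate 1 (2029 of 18590). The cause was not tested. The r of Hamp with Id1 was 0.44 to 0.79 without 1 library.

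Values that turned sign were not called under either setting. With the 8-locus level, averaged diet gave 0.48 for Hamp, 0.58 for Hamp2, -0.091 for Ftl1 and 0.20 for Slc40a1. Diet in Mlkl-/- livers gave -0.063 for Ftl1 and 0.22 for Slc40a1, diet in wild-type livers 0.10 for Bmp6, 0.16 for Id1, -0.12 for Ftl1 and 0.18 for Slc40a1, genotype on ND -0.011 for Tfr2, and the difference of the diet effects 0.033 for Slc40a1. With library size only, diet in wild-type livers gave 0.006 for Bmp6, 0.15 for Trf and 0.037 for Slc40a1, averaged diet 0.06 for Trf, genotype -0.17 for Id1 on HFD and -0.027 for Tfr2 on ND, and the difference of the diet effects -0.066 for Ftl1. Id1 on HFD gave -0.033 at 5 CPM and -0.09 with the title code, which also gave -0.012 for Ftl1 and 0.14 for Slc40a1 in the difference of the diet effects. Without 1 library, the difference of the diet effects ran from -0.74 to 0.12 for Bmp6, -0.18 to 0.11 for Fth1, -0.073 to 0.20 for Ftl1, -0.30 to 0.19 for Slc40a1 and -0.14 to 0.074 for Trf. Diet in Mlkl-/- livers ran from -0.051 to 0.22 for Ftl1, -0.46 to 0.063 for Slc40a1 and -0.18 to 0.025 for Trf. Diet in wild-type livers ran from -0.57 to 0.09 for Bmp6, -0.10 to 0.11 for Ftl1 and -0.31 to 0.01 for Slc40a1. Averaged diet ran from -0.023 to 0.12 for Ftl1 and -0.37 to 0.10 for Tfrc, and genotype from -0.34 to 0.42 for Id1 on HFD and -0.059 to 0.069 for Tfr2 on ND.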
